A study of Mus musculus with 9 samples.

Results

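The proteasome is the protease that degrades most short-lived proteins of the cell, and the genes described here encode its constitutive subunits, its activators and the factors that assemble it. Members were the rows of the deposited count table whose mouse symbol starts with Psm, a letter from a to g and a digit. Psmb8, Psmb9 and Psmb10, which encode the immunoproteasome's catalytic subunits, were left out by the rule. This gave 47 of the 22001 genes of the table. By role they were 8 genes of the 20S alpha ring, 8 of the 20S beta ring, 9 of the 19S base, 8 of the 19S lid, 4 chaperones of 20S assembly, 3 chaperones of 19S assembly, 5 genes of activators and 1 of an inhibitor. The remaining member, Psmc3ip, entered by its symbol only: it encodes a meiotic recombination factor that was named for binding a proteasome subunit. The filter on low counts kept 46 of the 47 members. Psmb11, which encodes a beta subunit of the thymus, was without counts in all 9 libraries, which allows a level of up to 0.0746 to 0.422 CPM depending on the library (CPM are counts scaled to a common library size, taken at 3 counts).

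Macrophages grown from the bone marrow of C57BL6 mice were sequenced for RNA, all collected 6 h after treatment. The untreated group received PBS and holds libraries A2, B2 and C2. The second group received Pam3CSK4, a synthetic lipopeptide that activates the receptor TLR2, at 100 µg/ml and holds libraries D1, D2 and D3. The other group received 100 µg/ml Pam3CSK4 together with 100 µl/ml of 3SL, a volume that gives no known amount, and holds libraries A2plus, B2plus and C2plus. Its treatment tag writes Pamc4-CSL where its descriptions name Pam3CSK4 and 3SL, and the descriptions were followed. Whether libraries of 1 group stem from different cultures or animals is not in the labels, so the p-values below measure only the spread between these libraries, which may be technical.

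Each 20S core particle is a barrel of stacked rings. The outer alpha rings gate the channel, and the inner beta rings carry the active sites of Psmb5 (chymotrypsin-like), Psmb6 (caspase-like) and Psmb7 (trypsin-like). The 19S cap binds ubiquitin-tagged proteins: the ATPases of its base unfold them and thread them into the core, and the lid removes the ubiquitin. PA28 and PA200 are other caps that open the core, and dedicated chaperones put core and cap together. The transcription factor NRF1, encoded by Nfe2l1, can raise the subunit genes together. In macrophages inflammatory signals and interferons raise the immunoproteasome and PA28.

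The labels were at odds with the response genes of Pam3CSK4. Il1b, an inflammatory cytokine gene, stood at a mean of 10160 CPM in the untreated-labelled, 6.23 CPM in the Pam3CSK4-labelled and 8136 CPM in the 3SL-labelled libraries, and Tnf stood at 1704, 18.4 and 1267 CPM in the same order. The groups are therefore called by their labels throughout, and each direction below holds for the libraries as labelled. The Pam3CSK4-labelled libraries alone carry the letter D, so treatment and whatever the letter stands for cannot be told apart. Totals ran from 7472482 to 43980309 counts. All 8 macrophage markers had counts, with a summed level of 22200 to 22670 CPM in the untreated-labelled, 16410 to 16840 CPM in the Pam3CSK4-labelled and 21570 to 22140 CPM in the 3SL-labelled libraries. The summed level of 7 neutrophil markers was 515.1 to 549.7, 308 to 399.1 and 417.3 to 456 CPM, and that of 6 dendritic cell markers 89.71 to 92.42, 38.08 to 38.46 and 88.34 to 91.74 CPM. The macrophage and the dendritic cell sum each came mostly from a single abundant marker. Only 4 of the 6 dendritic cell markers passed the filter on low counts, so these sums do not measure cell types. Single markers did not all follow these sums: in the Pam3CSK4-labelled against the untreated-labelled libraries 5 of the 8 macrophage markers were lower and 2 higher (Mertk at 0.99 and Cd68 at 0.46), 4 of 6 tested neutrophil markers were lower and 2 higher (Elane at 1.13 and Mpo at 1.08), and all 4 tested dendritic cell markers were lower. The summed markers of lymphocytes (8), stromal cells (6) and erythroid or mast cells (6) were at most 13.45 CPM in any library. These levels moved with the groups, and their part in the results below was not tested. In such bulk samples fewer cells of a type and less RNA per cell cannot be told apart.

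The promoters of the 4 members with the largest falls in the Pam3CSK4-labelled libraries, apart from the near copy Psme2b, are shown because they let a reader see whether genes that moved together share sequence. Each is the 250 bases before the RefSeq gene start on the mouse build GRCm38.p6, in the gene's own direction, with matches to 4 searched motifs in capitals.
Psma6 (chr12:55383972-55384221, plus strand, CCAAT box): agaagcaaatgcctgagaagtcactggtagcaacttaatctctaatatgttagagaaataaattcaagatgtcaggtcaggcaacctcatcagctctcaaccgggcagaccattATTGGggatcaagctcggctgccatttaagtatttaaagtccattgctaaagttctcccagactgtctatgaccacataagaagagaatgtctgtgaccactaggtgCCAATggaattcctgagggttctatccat
Psma6, other start (chr12:55398575-55398824, plus strand, NF-kappaB type): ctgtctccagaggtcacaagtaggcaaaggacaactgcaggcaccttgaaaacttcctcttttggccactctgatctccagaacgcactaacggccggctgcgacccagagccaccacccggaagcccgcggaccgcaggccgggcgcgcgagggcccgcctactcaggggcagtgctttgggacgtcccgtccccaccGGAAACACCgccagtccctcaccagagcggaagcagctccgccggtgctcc
Psmb6 (chr11:70525107-70525356, plus strand, antioxidant response element core): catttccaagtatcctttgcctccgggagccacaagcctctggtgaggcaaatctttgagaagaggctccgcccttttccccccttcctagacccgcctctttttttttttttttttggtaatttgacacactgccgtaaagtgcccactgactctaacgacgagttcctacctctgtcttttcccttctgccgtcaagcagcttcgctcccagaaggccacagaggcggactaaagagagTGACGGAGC
Psmd10 (chrX:140956712-140956961, minus strand, CCAAT box): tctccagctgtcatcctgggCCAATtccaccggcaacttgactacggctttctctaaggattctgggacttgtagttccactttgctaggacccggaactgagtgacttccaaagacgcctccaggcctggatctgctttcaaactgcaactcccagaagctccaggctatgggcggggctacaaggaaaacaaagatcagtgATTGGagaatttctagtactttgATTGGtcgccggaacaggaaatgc
Psme2 (chr14:55591102-55591351, minus strand, no match): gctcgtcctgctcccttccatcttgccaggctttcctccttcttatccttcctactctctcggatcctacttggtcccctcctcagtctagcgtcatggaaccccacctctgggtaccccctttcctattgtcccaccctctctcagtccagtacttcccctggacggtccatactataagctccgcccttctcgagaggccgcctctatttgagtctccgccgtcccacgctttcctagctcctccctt

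The promoter table held 39 of the 47 members. Psma8, Psmb1, Psmb2, Psmb7, Psmc3, Psmd3, Psmd7 and Psmg2 were the other members. On both strands, the core of the antioxidant response element that NRF1 and NRF2 bind, TGACNNNGC, was in the windows of 5 members (12.8%) against 11.5% of the 27025 genes of the table. The CCAAT box was in 14 members (35.9%) against 37.5% of all genes. TTTCNNTTT, the core of the interferon-stimulated response element, was in 4 members (10.3%) against 10.8%, and GGNNTTTCC, an NF-kappaB type motif, in 2 members (5.13%) against 5.62%. The shares among members were thus close to those of all genes for each of the 4 motifs, and no motif is in all of the printed windows. A match is a description of letters in this window only.

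Most proteasome genes were lower in the Pam3CSK4-labelled libraries than in the untreated-labelled ones with TMM scaling. The share of the members in all counts was 0.648 to 0.676% in the untreated-labelled, 0.521 to 0.524% in the Pam3CSK4-labelled and 0.64 to 0.675% in the 3SL-labelled libraries. This share is a sum and does not show how many members fell. Psma6, Psme2, Psme2b and Psmd10 weigh in it, with means of 698, 310, 191 and 131 CPM in the untreated-labelled libraries. Their means were 150, 62.2, 45.4 and 34.5 CPM in the Pam3CSK4-labelled ones. With edgeR's quasi-likelihood test, TMM scaling and a Benjamini-Hochberg adjusted p below 0.05 over 11469 genes, 37 of 46 members were lower (80.4%), where 35.9% of all tested genes were lower. Another 5 members were higher (10.9%), where 39% of all tested genes were higher, and 4 were not called. The members' median log2 change was -0.49 beside 0.03 over all tested genes. Most members are abundant, and abundant genes were lower more often: of the 37 members at a mean log2 CPM of at least 6, 36 were lower, beside 59.7% of the 3363 tested genes at that level. Falls of at least 2-fold were made by 5 members, Psma6, Psmb6, Psmd10, Psme2 and Psme2b, or 5 of 46 beside 10.8% of all tested genes, so falls of that size were about as frequent among the members as among all genes. CPM did not overlap between the 2 groups for 42 of the 46 members, beside 76% of all tested genes.

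How many small changes are called depends on the scaling. Dividing by library size only moved the median of all genes to 0.34, 74.3% of all called genes were then higher in place of 52%, and 28 members were lower and 11 higher. With upper-quartile factors the median was 0.18, 64% of called genes were higher, and 31 members were lower and 7 higher.

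**Figure D1:**
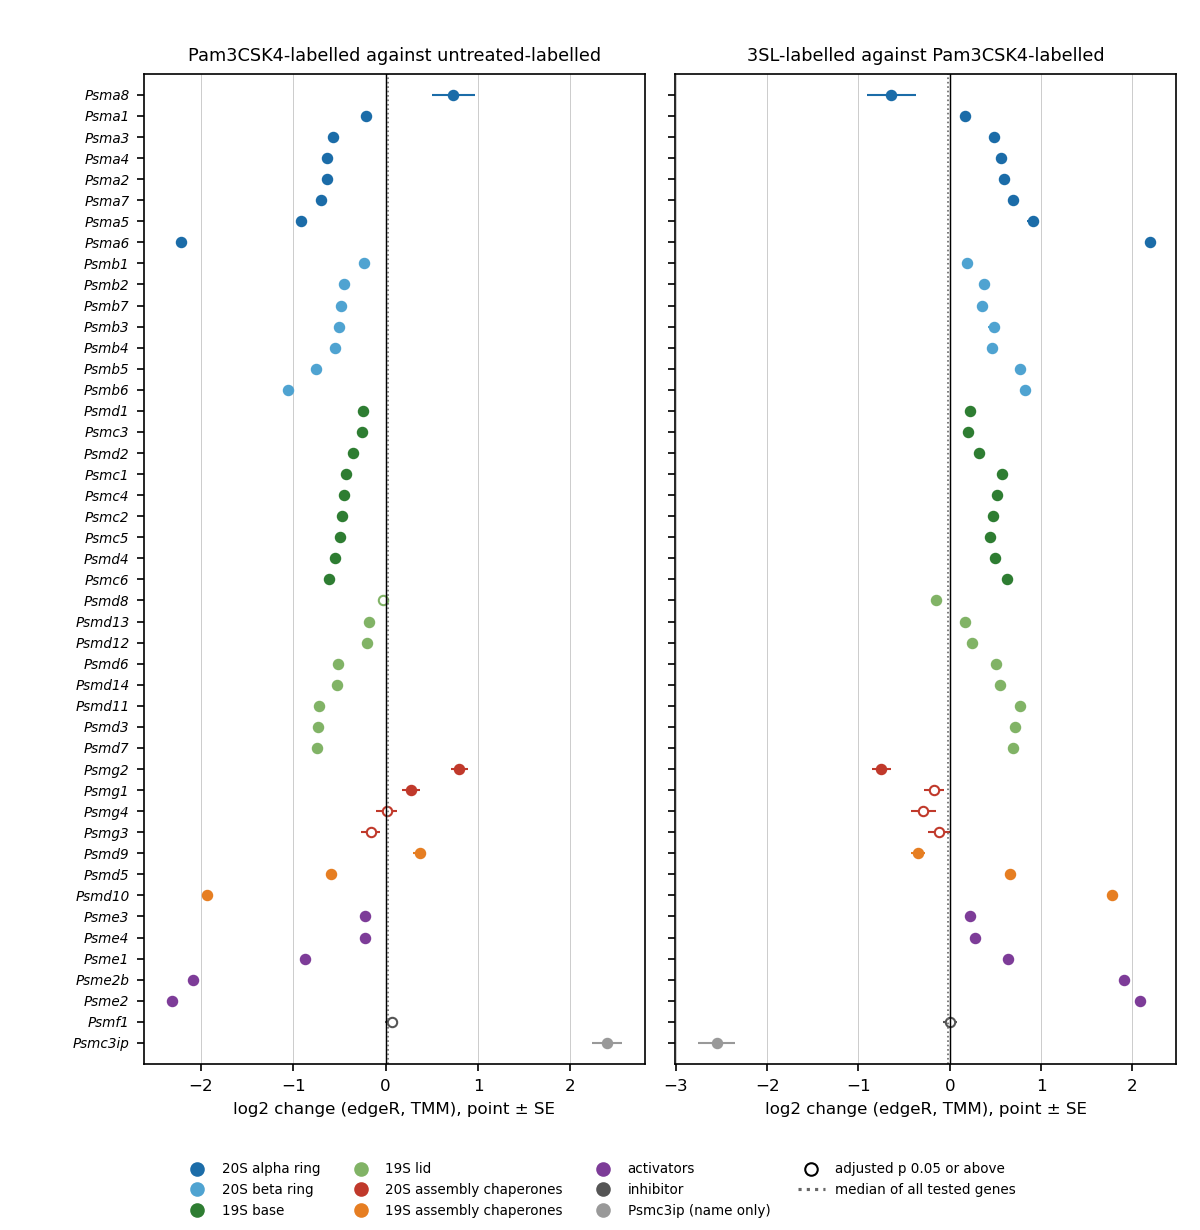
Log2 change ± SE of the 46 tested members (horizontal axes, TMM-scaled edgeR fit) in Pam3CSK4-labelled against untreated-labelled libraries (left) and 3SL-labelled against Pam3CSK4-labelled libraries (right), coloured by role, with open points for an adjusted p of 0.05 or above and a dotted line at the median of all tested genes. Of the members, 37 lie left of zero and are called on the left panel, 5 reach 2-fold, and 20S chaperones sit near or right of zero; with library size only, 10 members between -0.25 and -0.03 on the left panel turn positive, Psmg3 and Psmd8 among them without a call here.

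The 20S alpha ring held the largest fall of any core subunit. All 7 widely expressed alpha genes were lower in the Pam3CSK4-labelled libraries, though Psma1 turned to 0.09 with library size only, and the median log2 change of the 8 tested genes was -0.64. Psma6, the alpha1 subunit (chr12:55384222-55418454, plus strand, GENCODE M21), stood at 695, 722 and 676 CPM in the untreated-labelled libraries, 156, 147 and 148 CPM in the Pam3CSK4-labelled libraries and 656, 709 and 686 CPM in the 3SL-labelled libraries. The Pam3CSK4-labelled libraries were far below all 6 others, and those 6 overlapped. Its level was 4.66-fold lower than in the untreated-labelled libraries, a log2 change of -2.22 ± 0.0377 (SE, adjusted p = 2.88e-27, edgeR).

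The next largest alpha fall was that of Psma5, the alpha5 subunit, with 106, 114 and 100.2 CPM in the untreated-labelled libraries, 54.3, 57.6 and 59.8 CPM in the Pam3CSK4-labelled libraries and 97.3, 111 and 112 CPM in the 3SL-labelled libraries. This was a log2 change of -0.91 ± 0.0554 (SE, adjusted p = 1.9e-14, edgeR), without overlap of the groups. Psma3, the alpha7 subunit, stood at 133, 129.8 and 116 CPM in the untreated-labelled libraries, 88.3, 84.4 and 84.1 CPM in the Pam3CSK4-labelled libraries and 117, 125 and 116 CPM in the 3SL-labelled libraries, a log2 change of -0.57 (adjusted p = 2.16e-11). The other 4 widely expressed alpha genes, Psma1, Psma2, Psma4 and Psma7, had log2 changes between -0.70 and -0.22.

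Psma8, the alpha subunit of the testis proteasome, went the other way at a very low level. It stood at 1.96, 1.54 and 1.38 CPM in the untreated-labelled libraries, 2.4, 2.87 and 2.83 CPM in the Pam3CSK4-labelled libraries and 2.11, 1.76 and 1.42 CPM in the 3SL-labelled libraries, and its 270 counts over all 9 libraries gave a log2 change of 0.73 ± 0.229 (SE, adjusted p = 0.00553, edgeR). The Pam3CSK4-labelled libraries lay above all 3 untreated-labelled ones.

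All 7 tested beta genes were lower in the Pam3CSK4-labelled libraries with TMM scaling, with a median log2 change of -0.51, and Psmb1 turned to 0.08 with library size only. Psmb6, the caspase-like subunit, fell most. It stood at 316, 328 and 304 CPM in the untreated-labelled libraries, 145, 151 and 160.2 CPM in the Pam3CSK4-labelled libraries and 252, 284 and 272 CPM in the 3SL-labelled libraries. The 3 groups did not overlap, and the Pam3CSK4-labelled level was 2.08-fold lower than the untreated-labelled one, a log2 change of -1.06 ± 0.0432 (SE, adjusted p = 2.35e-18, edgeR).

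Psmb5, the chymotrypsin-like subunit that most proteasome inhibitors target, stood at 125, 131 and 118 CPM in the untreated-labelled libraries, 77.3, 71.4 and 74.9 CPM in the Pam3CSK4-labelled libraries and 123, 135 and 121 CPM in the 3SL-labelled libraries. It was 1.69-fold lower in the Pam3CSK4-labelled than in the untreated-labelled libraries (log2 change -0.76, adjusted p = 8.39e-14, edgeR). Psmb7, the trypsin-like subunit, changed less, by -0.48 (adjusted p = 3.27e-08). The smallest fall was that of Psmb1, a beta subunit without an active site, with 139, 148 and 144 CPM in the untreated-labelled libraries, 123, 119 and 125 CPM in the Pam3CSK4-labelled libraries and 130.4, 146 and 142 CPM in the 3SL-labelled libraries and a log2 change of -0.23 (adjusted p = 2.21e-05). The catalytic subunits thus did not share a common size of change. Psmb2, Psmb3 and Psmb4, none of which has an active site, lay between -0.54 and -0.45.

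The 9 genes of the 19S base formed the tightest group. Every one was lower in the Pam3CSK4-labelled libraries with TMM scaling, with log2 changes from -0.61 to -0.24 and a median of -0.45, but Psmc3 and Psmd1 turned to 0.06 and 0.07 with library size only. Psmc6, an ATPase of the base, stood at 185, 185 and 189.9 CPM in the untreated-labelled libraries, 121, 120.4 and 124 CPM in the Pam3CSK4-labelled libraries and 186, 186 and 190.3 CPM in the 3SL-labelled libraries. That was a log2 change of -0.61 ± 0.037 (SE, adjusted p = 1.61e-14, edgeR), and the untreated-labelled and 3SL-labelled libraries overlapped.

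Psmd1, the large scaffold of the base, stood at 285, 289.6 and 297 CPM in the untreated-labelled libraries, 246, 244 and 246 CPM in the Pam3CSK4-labelled libraries and 278, 283 and 293 CPM in the 3SL-labelled libraries, with a log2 change of -0.24 (adjusted p = 3.77e-07). Psmc1, another ATPase, stood at 189, 200.4 and 197 CPM in the untreated-labelled libraries, 149, 145 and 141 CPM in the Pam3CSK4-labelled libraries and 205, 231 and 208 CPM in the 3SL-labelled libraries and was 1.35-fold lower (log2 change -0.43, adjusted p = 6.52e-10, edgeR). The ATPases Psmc3 and Psmc5 had log2 changes of -0.25 (adjusted p = 8.51e-07, edgeR) and -0.50 (adjusted p = 1.89e-11). Psmc3 stood at 189, 192 and 194 CPM in the untreated-labelled, 166, 159.9 and 158 in the Pam3CSK4-labelled and 184, 190.05 and 179.5 in the 3SL-labelled libraries. Psmc5 stood at 144, 144 and 139 CPM, then 105, 101 and 96.7, then 134, 142 and 135 in the same order. The ubiquitin receptors and scaffolds Psmd2 and Psmd4 had -0.36 and -0.55, and Psmc2 and Psmc4 had -0.47 and -0.45.

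In the lid, 7 of 8 genes were lower in the Pam3CSK4-labelled libraries with TMM scaling, of which Psmd12 and Psmd13, at -0.20 and -0.18, turned to 0.11 and 0.14 with library size only. Psmd7 fell most. It encodes the lid's partner of the deubiquitinase Psmd14 and stood at 168, 167 and 160.1 CPM in the untreated-labelled libraries, 99.5, 101 and 96.2 CPM in the Pam3CSK4-labelled libraries and 157, 168 and 155 CPM in the 3SL-labelled libraries, a log2 change of -0.74 ± 0.0414 (SE, adjusted p = 2.99e-15, edgeR). Psmd3, another lid subunit, was next at -0.74 (adjusted p = 6.31e-16). Psmd11, a scaffold of the lid, followed with 126, 131 and 123 CPM in the untreated-labelled libraries, 72.2, 84.4 and 72.7 CPM in the Pam3CSK4-labelled libraries and 127, 138 and 127 CPM in the 3SL-labelled libraries and a log2 change of -0.72 (adjusted p = 7.14e-13). Psmd14 itself changed by -0.53 (adjusted p = 1.85e-11) and Psmd6 by -0.52.

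Psmd8, the last subunit to join the lid, was the exception. Its levels were 272, 284 and 279 CPM in the untreated-labelled libraries, 271, 281 and 267 CPM in the Pam3CSK4-labelled libraries and 239, 259 and 240.4 CPM in the 3SL-labelled libraries. The untreated-labelled and Pam3CSK4-labelled libraries overlapped, with a log2 change of -0.03 ± 0.0368 (SE, adjusted p = 0.505, edgeR), which became 0.28 with library size only and 0.12 with upper-quartile factors. Of the 31 widely expressed core and cap subunits, Psmd8 was the only one not called lower under TMM scaling.

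A ratio within a library needs no scaling factor. Each member was therefore set against the geometric mean of the 31 widely expressed core and cap subunits in the same library. On this log2 scale Psma6 stood at 2.05, 2.06 and 2.04 in the untreated-labelled, 0.44, 0.36 and 0.37 in the Pam3CSK4-labelled and 2.04, 2.05 and 2.07 in the 3SL-labelled libraries. Psmb6 stood at 0.92, 0.92 and 0.89, then 0.34, 0.41 and 0.49, then 0.66, 0.73 and 0.73. Psmd8 moved the opposite way, from 0.70, 0.71 and 0.76 to 1.24, 1.30 and 1.23, and stood at 0.58, 0.60 and 0.55 in the 3SL-labelled libraries. The subunits of one complex thus changed by unequal amounts in the Pam3CSK4-labelled libraries.

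**Figure D2:**
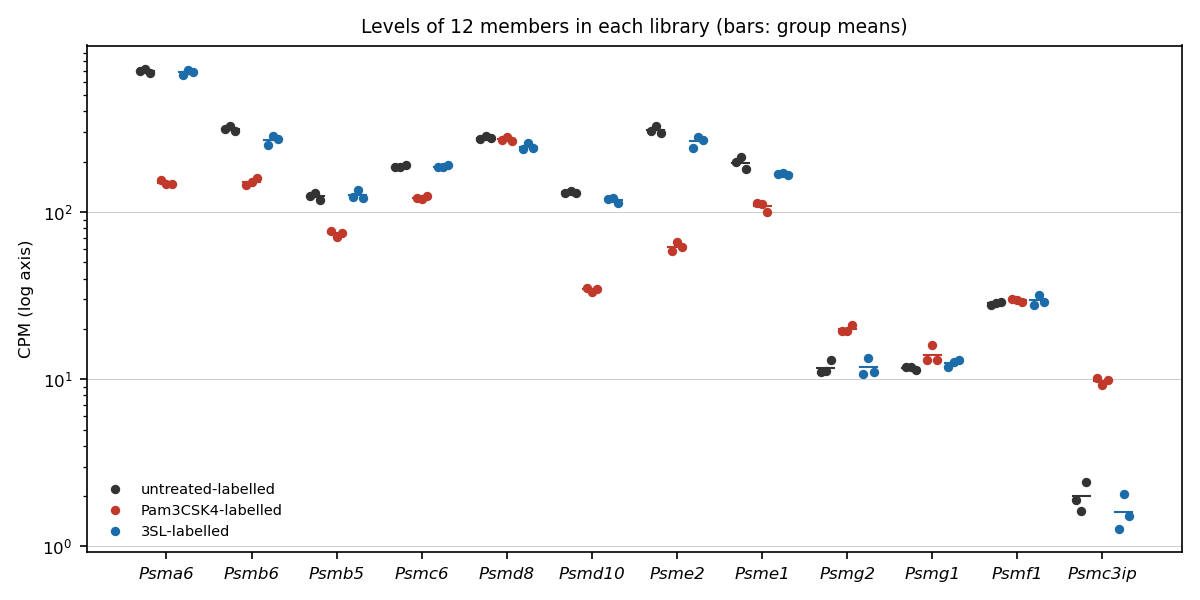
CPM (vertical, log axis) of 12 members in each of the 9 libraries, with 1 point per library and a bar at each group mean. Psma6, Psme2 and Psmd10 drop in the Pam3CSK4-labelled libraries, Psmd8 and Psmf1 keep overlapping levels there and in the untreated-labelled ones, and Psmg2 and Psmc3ip are higher.

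Per length, Psma6 stood apart from every other core subunit. Its mean level was 1715 ± 36.0 TPM (SD, n = 3; TPM are counts per length of the annotated exons, scaled to a common sum) in the untreated-labelled libraries. That was 8.98 times the median of 190.9 TPM over the 14 widely expressed core subunits, and the next subunit, Psmb6, stood at 512 TPM. In the Pam3CSK4-labelled libraries Psma6 stood at 479.8 TPM, 2.84 times the core median of 168.8 TPM, and in the 3SL-labelled libraries at 1758 TPM, 9.18 times the median. The lowest core subunit was Psmb3 in all 3 groups, between 73.28 and 82.42 TPM. With the longest transcript as length, the lowest was Psmb7 in all 3 groups, between 81.96 and 88.56 TPM, Psma6 stood at 1576 TPM in the untreated-labelled libraries and Psmb6 passed it in the Pam3CSK4-labelled ones, 475.6 against 434.4 TPM.

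The cap was more even in the untreated-labelled libraries. Its 17 genes ranged from 60.0 TPM (Psmd11) to 310 TPM (Psmc5) in the untreated-labelled libraries, a 5.16-fold spread beside 21.5-fold in the core. The core's spread rested largely on Psma6 at 1715 TPM. The next core subunit, Psmb6, stood at 511.7 TPM and the lowest, Psmb3, at 79.7 TPM. In the Pam3CSK4-labelled libraries the spread was 7.46-fold in the cap and 6.55-fold in the core, with Psmd8 the highest cap gene at 352 TPM. With the longest transcript as length this order turned, to 5.36-fold in the cap and 5.8-fold in the core.

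Psma6 made up a part of the difference between core and cap. The mean TPM of the cap over that of the core was 0.576 ± 0.0128 (SD, n = 3) in the untreated-labelled, 0.913 ± 0.00833 in the Pam3CSK4-labelled and 0.594 ± 0.014 in the 3SL-labelled libraries. Without Psma6, left out after its value was seen, the ratios were 0.863, 1.02 and 0.9004. No library of the Pam3CSK4-labelled group overlapped with the others in either form. The summed cap was 3156 ± 15.4, 3103.5 ± 7.26 and 3277 ± 47.8 TPM, and the summed core 4511.9 ± 117.1, 2799.3 ± 28.02 and 4542.2 ± 140 TPM in the same order. TPM carries no TMM factor, and the cap's sum was nearly level between the groups on this scale. With TMM scaling 16 of its 17 genes were lower. Single cap genes moved both ways in TPM from the untreated-labelled to the Pam3CSK4-labelled libraries. Psmd8 went from 276 to 352 TPM and Psmd7 from 221 to 172 TPM. What keeps the sum level was not tested. By median log2 change the 14 core genes stood at -0.60 and the 17 cap genes at -0.47, and no test of core against cap was made.

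**Figure D3:**
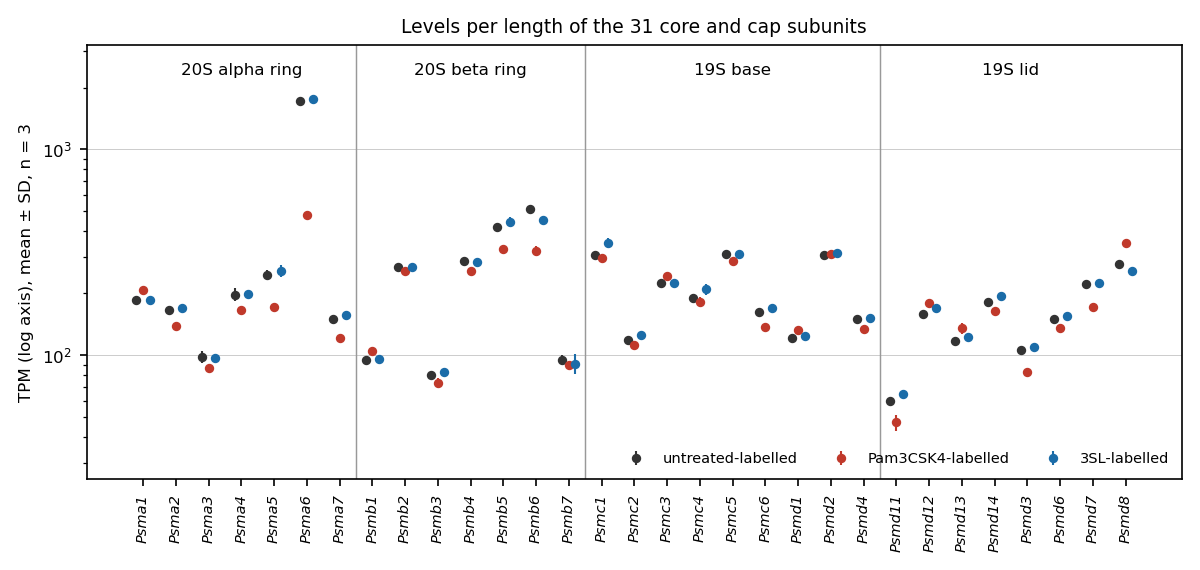
Mean TPM ± SD (n = 3 libraries, log axis) of the 31 widely expressed core and cap subunits in the 3 labelled groups, ordered by ring and by gene. Psma6 stands at 1715 TPM in the untreated-labelled and 1758 TPM in the 3SL-labelled libraries and at 479.8 TPM in the Pam3CSK4-labelled ones. Cap subunits move by less and both ways on this scale, which carries no TMM factor. From the untreated-labelled to the Pam3CSK4-labelled libraries Psmd8 goes from 276 to 352 TPM and Psmd7 from 221 to 172 TPM.

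Chaperones moved in both directions. Of the 4 members that are chaperones of 20S assembly none was lower in the Pam3CSK4-labelled libraries and 2 were higher, where 39% of all tested genes were higher, and their median log2 change was 0.14. Pomp, a further 20S chaperone that lies outside the symbol pattern, was lower, with 176, 181 and 163 CPM in the untreated-labelled libraries, 142, 138 and 139 CPM in the Pam3CSK4-labelled libraries and 156, 178 and 160.0 CPM in the 3SL-labelled libraries and a log2 change of -0.32 (adjusted p = 4.91e-07, edgeR). Psmg2, which pairs with Psmg1 to start the alpha ring, stood at 11, 11.1 and 13 CPM in the untreated-labelled libraries, 19.4, 19.5 and 21 CPM in the Pam3CSK4-labelled libraries and 10.8, 13.4 and 11.1 CPM in the 3SL-labelled libraries. The Pam3CSK4-labelled libraries lay above all others, 1.74-fold higher than the untreated-labelled ones (log2 change 0.80 ± 0.0919 SE, adjusted p = 1.2e-08, edgeR). Psmg1 stood at 11.8, 11.9 and 11.3 CPM in the untreated-labelled libraries, 13.1, 16 and 13 CPM in the Pam3CSK4-labelled libraries and 11.8, 12.7 and 13 CPM in the 3SL-labelled libraries, with a log2 change of 0.27 (adjusted p = 0.0136). The Psmg1 call was lost without library D2, where the change was 0.16 with an adjusted p of 0.191, and also with the DESeq2 test (adjusted p = 0.08) and at equal depth (adjusted p = 0.163).

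The second pair, Psmg3 and Psmg4, was not called. Psmg3 stood at 11.8, 14.2 and 12.2 CPM in the untreated-labelled libraries, 12.4, 11.1 and 11.7 CPM in the Pam3CSK4-labelled libraries and 12.1, 11.1 and 9.56 CPM in the 3SL-labelled libraries and Psmg4 at 9.75, 10.4 and 10.3 CPM in the untreated-labelled libraries, 12.1, 8.72 and 10.4 CPM in the Pam3CSK4-labelled libraries and 8.99, 8.62 and 7.73 CPM in the 3SL-labelled libraries. On the log2 scale their changes were -0.16 (adjusted p = 0.152) and 0.01 (adjusted p = 0.923), and the groups overlapped for both. Against the core without Psma6, the mean TPM of the 4 chaperones was 0.130, 0.131 and 0.142 in the untreated-labelled, 0.260, 0.237 and 0.244 in the Pam3CSK4-labelled and 0.137, 0.129 and 0.124 in the 3SL-labelled libraries.

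The 3 chaperones of 19S assembly split. Psmd10, known as gankyrin, fell most of all chaperones. It encodes an ankyrin-repeat protein that binds the ATPase Psmc4 and lies on the X chromosome (chrX:140948429-140956728, minus strand), and it stood at 131, 133 and 129 CPM in the untreated-labelled libraries, 35.4, 33.3 and 34.8 CPM in the Pam3CSK4-labelled libraries and 119, 122 and 113 CPM in the 3SL-labelled libraries. This was 3.81-fold lower in the Pam3CSK4-labelled than in the untreated-labelled libraries, a log2 change of -1.93 ± 0.0479 (SE, adjusted p = 1.97e-23, edgeR). Psmd5, which holds another part of the ATPase ring, stood at 79.4, 76.9 and 83.9 CPM in the untreated-labelled libraries, 51.9, 52.7 and 53 CPM in the Pam3CSK4-labelled libraries and 80.3, 84.2 and 83.6 CPM in the 3SL-labelled libraries and fell by 0.60 on the log2 scale (adjusted p = 8.43e-12). Psmd9, the remaining base chaperone, was higher instead. Its levels were 26.2, 26.2 and 22.4 CPM in the untreated-labelled libraries, 32.4, 31.8 and 34.1 CPM in the Pam3CSK4-labelled libraries and 27.1, 25.9 and 24.3 CPM in the 3SL-labelled libraries, a log2 change of 0.37 ± 0.0706 (SE, adjusted p = 3.95e-05, edgeR). A lincRNA on the other strand covers 25.5% of its exon bases, and the strand setting of the counting was not given, so reads of the 2 cannot be told apart.

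All 5 activator genes were lower in the Pam3CSK4-labelled libraries with TMM scaling, with a median log2 change of -0.87, but Psme3 and Psme4 turned to 0.09 and 0.09 with library size only. Psme2, the beta chain of the interferon-inducible PA28 ring, had the largest fall of any member. It stood at 307, 327 and 298 CPM in the untreated-labelled libraries, 58.5, 66 and 62.2 CPM in the Pam3CSK4-labelled libraries and 243, 282 and 269 CPM in the 3SL-labelled libraries. The Pam3CSK4-labelled libraries were 4.99-fold lower than the untreated-labelled ones, a log2 change of -2.32 ± 0.0524 (SE, adjusted p = 2.24e-24, edgeR). Psme1, the alpha chain of the same ring, fell less. Its levels were 199, 213 and 180.4 CPM in the untreated-labelled libraries, 113, 112 and 100.3 CPM in the Pam3CSK4-labelled libraries and 169.6, 172 and 166 CPM in the 3SL-labelled libraries, a log2 change of -0.87 ± 0.0505 (SE, adjusted p = 6.48e-15, edgeR). Both chains lie on chromosome 14 within 13 kb of each other.

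Psme2b, a copy of Psme2 on chromosome 11, stood at 186, 209 and 179 CPM in the untreated-labelled libraries, 45.4, 46.5 and 44.2 CPM in the Pam3CSK4-labelled libraries and 158, 176 and 177 CPM in the 3SL-labelled libraries (log2 change -2.08, adjusted p = 1.51e-22). Its transcript is 99.4% identical to that of Psme2 over 794 bases, so counts of the pair may be split between them and neither level is certain. Psme3, the nuclear PA28 gamma, stood at 148, 152 and 142 CPM in the untreated-labelled libraries, 138, 122 and 122 CPM in the Pam3CSK4-labelled libraries and 146, 152 and 147 CPM in the 3SL-labelled libraries, a log2 change of -0.22 (adjusted p = 7.47e-05). Psme4, which encodes PA200, stood at 144, 148 and 161 CPM in the untreated-labelled libraries, 125, 139 and 122 CPM in the Pam3CSK4-labelled libraries and 159.8, 145 and 165 CPM in the 3SL-labelled libraries, a log2 change of -0.22 (adjusted p = 0.000326). The inhibitor Psmf1, known as PI31, was not called, with 27.8, 28.6 and 29.2 CPM in the untreated-labelled libraries, 30.2, 29.9 and 29 CPM in the Pam3CSK4-labelled libraries and 27.8, 32.1 and 28.9 CPM in the 3SL-labelled libraries and a log2 change of 0.06 ± 0.0671 (SE, adjusted p = 0.402, edgeR).

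Psmc3ip, the recombination factor, had the largest rise of any member at a low level. It stood at 1.9, 1.64 and 2.44 CPM in the untreated-labelled libraries, 10.2, 9.18 and 9.93 CPM in the Pam3CSK4-labelled libraries and 1.26, 2.06 and 1.52 CPM in the 3SL-labelled libraries, 5.26-fold higher in the Pam3CSK4-labelled than in the untreated-labelled libraries (log2 change 2.40 ± 0.166 SE, adjusted p = 3.75e-13, edgeR). The gene Mlx on the other strand overlaps 21.2% of its exon bases, so reads of Mlx could be counted there. Without Psmc3ip, Psma8 and Psme2b, an alternative added after seeing the data, 36 members were lower and 3 higher. In all, 16 of the 47 members have an annotated near copy of at least 90% identity over at least 200 bases, mostly pseudogenes that are not in the table.

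The 3SL-labelled libraries were also compared with the Pam3CSK4-labelled ones, as labelled. The labels are at odds with Il1b and Tnf, and the Pam3CSK4-labelled libraries alone carry the letter D. What the addition of 3SL changed therefore cannot be told from this comparison. This comparison contains the same Pam3CSK4-labelled libraries as the first, so the 2 are not independent, and values are set side by side only. With the same test, 37 members were higher, beside 34.7% of all tested genes, and 5 were lower, beside 36.8%. The members' median log2 change was 0.48, beside -0.02 over all tested genes. With library size only, 26 members were higher and 11 lower, and with upper-quartile factors 31 and 7. Of all called genes 48.5% were higher, which became 27.6% and 36.4% under these scalings. Rises of at least 2-fold were made by 4 members, Psma6, Psmd10, Psme2 and Psme2b, beside 10.5% of all tested genes.

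By role, the higher members were 7 of 8 alpha, 7 of 7 tested beta, 9 of 9 base, 7 of 8 lid and 5 of 5 activator genes and 2 of 3 chaperones of 19S assembly, of which Psma1, Psmb1, Psmc3, Psmd1, Psmd12, Psmd13 and Psme3 turned negative with library size only. Psma6 was 4.56-fold higher in the 3SL-labelled libraries (log2 change 2.19 ± 0.0382 SE, adjusted p = 6.61e-27, edgeR). Psmd10 changed by 1.78 (adjusted p = 7.48e-22) and Psme2 by 2.09 (adjusted p = 6.79e-23). Psmb6 changed by 0.83 (adjusted p = 1.98e-15), and Psmb1, at the other end of the range of the beta genes, by 0.19 (adjusted p = 0.000515). In the base, Psmc6 changed by 0.62 (adjusted p = 3.95e-14) and Psmc3 by 0.20 (adjusted p = 6.66e-05). In the lid, Psmd11 changed by 0.77 (adjusted p = 8.36e-13), and in the activators Psme3 changed least, by 0.23 (adjusted p = 0.000109).

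The 5 lower members were Psma8, Psmd8, Psmd9, Psmg2 and Psmc3ip. Psmg2 fell by 0.75 on the log2 scale (adjusted p = 4.39e-07, edgeR), Psmd9 by 0.35 (adjusted p = 0.00032) and Psmd8 by 0.15 (adjusted p = 0.00123). Psmc3ip fell by 2.55 (adjusted p = 1.12e-11). Psma8 fell by 0.64 (adjusted p = 0.0344), a call lost without any one of libraries D2, D3, B2plus or C2plus, where the adjusted p ran from 0.0721 to 0.149, and with the DESeq2 test (0.0929). Psmg1, Psmg3, Psmg4 and Psmf1 were not called, with log2 changes of -0.17, -0.11, -0.29 and 0.0007. Psmg4 was called lower without library D2 (adjusted p = 0.00885), with library size only (0.000446), with upper-quartile factors (0.00512), without the filter (0.0397) and at equal depth (0.0136). Psmg1 was called lower with library size only (0.000593) and with upper-quartile factors (0.0114).

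The 3SL-labelled and untreated-labelled libraries differed little in the proteasome genes. Psmc1 was higher, as 1 of 46 members, beside 3.83% of all tested genes, 6 were lower, or 13% of the 46 beside 5.11% of all tested genes, and 39 were not called. The median log2 change of the members was -0.03, beside -0.0012 over all tested genes. With library size only, 1 member was higher and 4 were lower, and 66% of all called genes were higher in place of 42.8%. For the 31 widely expressed core and cap subunits the log2 changes ran from -0.23 to 0.14.

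The lower members were Psmb6, Psmd8, Psmd10, Psme1, Psme2 and Psme2b. Psme1, with the 9 values given above, was 1.18-fold lower in the 3SL-labelled libraries (log2 change -0.23 ± 0.0506 SE, adjusted p = 0.00258, edgeR), and Psme2 1.17-fold lower (-0.23 ± 0.0471, adjusted p = 0.00139). Psmb6 changed by -0.23 ± 0.0427 (adjusted p = 0.000485) and Psmd8 by -0.18 ± 0.0381 (adjusted p = 0.00262). For each of these 4 genes the 3 libraries of one group lay entirely below those of the other. The 2 groups also did not overlap for the called Psmc1, Psmd10 and Psme2b and for Psmd2, Psmd12 and Psmg4, which were not called. The share over all tested genes was not computed for this comparison, so the lack of overlap does not set the 4 genes apart. Psmb6, Psmd8 and Psme2 were called in every alternative run.

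The remaining calls were less firm. Psme1 was lost without library B2 (adjusted p = 0.0517). Psmd10, with a change of -0.16 (adjusted p = 0.0202), was lost without A2 (0.0592), B2 (0.109) or C2plus (0.127), with library size only (0.0922) and at equal depth (0.191). Psme2b, with -0.17 (adjusted p = 0.0276), was lost without B2 (0.34) or A2plus (0.198), with library size only (0.0781) and at equal depth (0.0814). Psmc1, the higher member, changed by 0.14 ± 0.0432 (adjusted p = 0.0432) and was lost without A2 (0.198), B2 (0.0566), C2 (0.068) or B2plus (0.292). B2 is the deepest library, with 43980309 counts.

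Among members that were not called, Psma3 and Psma8 marked the ends of the alpha ring at -0.09 (adjusted p = 0.307) and 0.09 (adjusted p = 0.897). Psma6 stood at -0.03 ± 0.0348 (SE, adjusted p = 0.681, edgeR), Psmb5 at 0.01 (adjusted p = 0.919) and Psmc5 at -0.06 (adjusted p = 0.48). Psmd11 stood at 0.04, Psmg1 at 0.10, Psmg3 and Psmg4 both at -0.28, Psmd5 at 0.06, Psme4 at 0.05 and Psmf1 at 0.06. Such a p does not show that the 2 groups were alike.

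**Figure D4:**
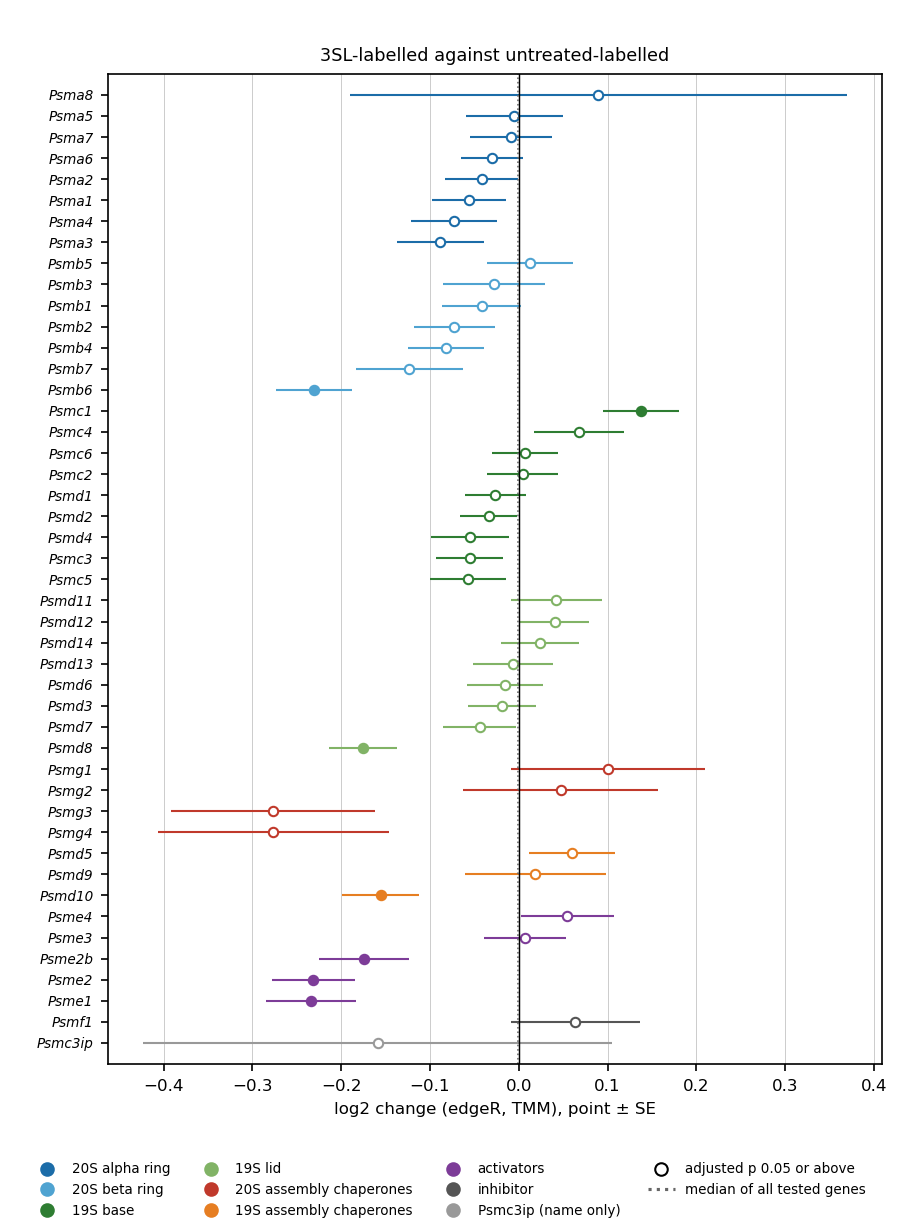
Log2 change ± SE of the 46 tested members in 3SL-labelled against untreated-labelled libraries (horizontal axis, TMM-scaled edgeR fit), coloured by role, with open points for an adjusted p of 0.05 or above and a dotted line at the median of all tested genes. The 7 filled points are Psmc1 on the right and Psmb6, Psmd8, Psmd10, Psme1, Psme2 and Psme2b on the left, all between -0.23 and 0.14.

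The immunoproteasome genes that the rule left out gave a measure of how the 2 forms compared. All 3 were lower in the Pam3CSK4-labelled than in the untreated-labelled libraries, Psmb8 by 0.85, Psmb9 by 0.62 and Psmb10 by 1.49 on the log2 scale. They were also lower in the 3SL-labelled than in the untreated-labelled libraries, with log2 changes of -0.26 (adjusted p = 0.000385), -0.29 (adjusted p = 0.0183) and -0.23 (adjusted p = 0.00491). Their summed TPM over that of the constitutive Psmb5, Psmb6 and Psmb7 was 0.438 ± 0.0219 (SD, n = 3) in the untreated-labelled, 0.367 ± 0.0132 in the Pam3CSK4-labelled and 0.402 ± 0.0128 in the 3SL-labelled libraries. The Pam3CSK4-labelled libraries were lowest on this ratio and did not overlap with the others. The untreated-labelled and 3SL-labelled libraries were barely apart, with A2 at 0.4133 and C2plus at 0.4109. Only the union of exons was used as length here.

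Other genes that act with the proteasome were followed through lists. Of 17 tested accessory genes outside the symbol pattern, 11 were lower and 5 higher in the Pam3CSK4-labelled than in the untreated-labelled libraries. Those were 64.7% and 29.4%, where 35.9% of all tested genes were lower and 39% higher. Among tested genes at a mean log2 CPM of at least 6, 59.7% were lower. Zfand5, an activator of the assembled proteasome, changed by -1.11 (adjusted p = 9.33e-21, edgeR) and Zfand2a, an arsenite-induced partner of the proteasome, by 1.07 (adjusted p = 9.04e-18). Against the Pam3CSK4-labelled libraries, the 3SL-labelled ones had 11 of these genes higher and 5 lower, with Zfand5 at 1.26 and Zfand2a at -1.06. All tested genes were higher in 34.7% and lower in 36.8% there. Against the untreated-labelled ones 3 were higher, led by Zfand5 at 0.15 and Ddi2 at 0.20, beside 3.83% of all tested genes.

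Of the 13 genes of the NRF1 list, 10 were lower (76.9%) and 1 higher in the Pam3CSK4-labelled than in the untreated-labelled libraries. Beside this, 35.9% of all tested genes were lower and 39% higher, and 59.7% of those at a mean log2 CPM of at least 6 were lower. Nfe2l1 stood at 442, 439 and 451 CPM in the untreated-labelled libraries, 193, 198 and 198 CPM in the Pam3CSK4-labelled libraries and 451, 456 and 468 CPM in the 3SL-labelled libraries, a log2 change of -1.17 ± 0.0331 (SE, adjusted p = 3.82e-22, edgeR). The Pam3CSK4-labelled libraries lay below all others. Maff, a small partner of NRF1 in DNA binding, changed by -2.91 (adjusted p = 2.01e-21). Ddi2, the protease that activates NRF1, was the 1 gene that was higher, at 0.45 (adjusted p = 4.43e-09). In the 3SL-labelled against the Pam3CSK4-labelled libraries 10 were higher and 1 lower, with Nfe2l1 at 1.22 and Maff at 2.76, beside 34.7% and 36.8% of all tested genes. Against the untreated-labelled libraries 2 were higher (Mafg at 0.18 and Ddi2) and 1 was lower, beside 3.83% and 5.11% of all tested genes.

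Genes of ubiquitin supply were also mostly lower. Of 6 genes that supply or activate ubiquitin, 5 were lower in the Pam3CSK4-labelled than in the untreated-labelled libraries and none was higher. This stands beside 35.9% lower and 39% higher over all tested genes, and 59.7% lower among those at a mean log2 CPM of at least 6. Uba1, the main ubiquitin-activating enzyme, changed by -0.58 (adjusted p = 4.17e-15, edgeR) and Uba6 by -0.63 (adjusted p = 3.29e-11). The 3SL-labelled libraries had 5 of them higher than the Pam3CSK4-labelled ones, with Uba1 at 0.59 and Uba6 at 0.61, beside 34.7% of all tested genes. None was called against the untreated-labelled ones, where Rps27a stood at -0.09.

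The members lie on many chromosomes. Neighbours were looked up for Psma6 and Psme2, the 2 genes with the largest falls among subunits and activators apart from the near copy Psme2b. Those of Psme2 moved in both directions. Around Psma6 the only higher gene was Srp54b, at means of 0.025 CPM in the untreated-labelled and 1.42 ± 1.23 CPM (SD, n = 3) in the Pam3CSK4-labelled libraries. Psma6 lies 108 kb from the start of Nfkbia, which encodes the NF-kappaB inhibitor and stood at 1115 ± 29.4, 45.1 ± 0.788 and 1072 ± 28.7 CPM (SD, n = 3) in the untreated-labelled, Pam3CSK4-labelled and 3SL-labelled libraries, a log2 change of -4.63. On the other side, Ppp2r3c and Srp54c were lower by far less, at -0.71 and -0.70, 1110008L16Rik was not called at -0.26 (adjusted p = 0.0537), and Srp54b, with 69 counts in all, was higher at 4.64. Psme2 starts 0.595 kb from Rnf31, at -1.02, and 12.5 kb from Irf9, at -0.92. Of the 20 tested genes within 300 kb of Psme2 that are not members, 7 were lower, 6 were higher and 7 were not called, and Pck2 was higher at 1.52 (adjusted p = 1.46e-15, edgeR). Around Psma6, 3 of 5 such genes were lower and 1 was higher. Over all tested genes 35.9% were lower and 39% higher. These neighbours were looked up after the members' values were seen.

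**Figure D5:**
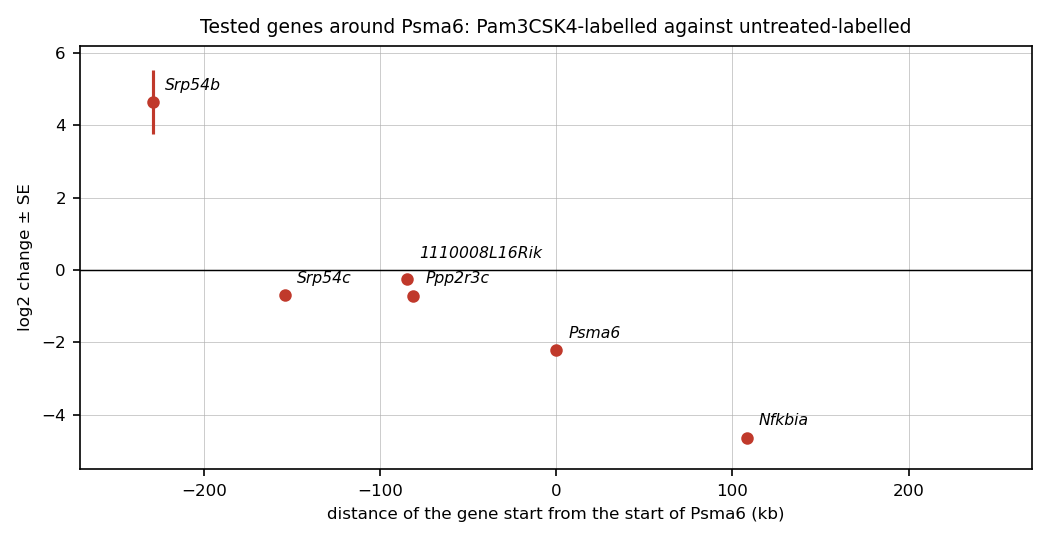
Log2 change ± SE (vertical) of the tested genes within 300 kb of Psma6 in Pam3CSK4-labelled against untreated-labelled libraries, by the distance of each gene's start from that of Psma6 in kb. Psma6 at -2.22 and Nfkbia at -4.63 are the 2 lowest points, and Srp54b, with 69 counts in all libraries, is the only one above zero.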

How the data were processed

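Raw counts per gene, as the authors deposited them in 1 table for the whole series, were the only values used. Per the labels' protocols, RNA was extracted with Trizol and libraries were made with the NEBNext Ultra RNA kit. HISAT2 2.1.0 is named in the submitters' processing notes beside featureCounts and Subread, and these notes give the build hg38 although all gene identifiers are mouse ones. The annotation and the strand setting of the counting are not given in the sources used here. Besides these, the table holds 15 other columns, which were not used. Totals ran from 7472482 to 43980309 counts per library, and a level of 3 counts was taken as the floor, which covers counting error only.

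Counts were tested with edgeR 4.0.16 (limma 3.58.1, R 4.3.3): filterByExpr with the 3 groups kept 11469 genes (52.1%), TMM factors scaled the libraries, and 1 quasi-likelihood model with a mean for each group was fitted to all 9 libraries. P-values were adjusted by Benjamini-Hochberg over all tested genes, with a threshold of 0.05. CPM used the TMM-scaled totals. TPM was computed from counts and the union of exons in GENCODE M21 on GRCm38, which also gave coordinates and is not the authors' annotation. Alternatives were other scalings, no filter, DESeq2 1.42.0, only the compared groups, equal depth, each library left out and a block by library letter. The code was tested on simulated data. Members, lists and roles were chosen with earlier results of these data known. In each role the members with the highest and lowest change in each comparison are given library by library, the others by range and count, and of each other list the 2 genes with the smallest p, apart from the immunoproteasome and label check genes, which are all given. Pomp, Pck2, Mertk, Cd68, Elane and Mpo are named outside this rule, after their values were seen. Results on 2 genes of these lists are not reported here. No 2 libraries agreed within sampling noise (chi-square per degree of freedom 1.85 to 3.01 within groups).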

Additional observations from a re-analysis of the deposited data

How the results depend on the processing

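Directions of small changes rest on the scaling. With library size only, 10 members turned from lower to higher in the Pam3CSK4-labelled against the untreated-labelled libraries, namely Psmc3 (0.0606), Psmb1 (0.0795), Psmd12 (0.11), Psmd13 (0.14), Psmd1 (0.0697), Psmd8 (0.28), Psma1 (0.094), Psme4 (0.0897), Psme3 (0.0932) and Psmg3 (0.15, called in neither), and 11 members were called higher in place of 5. In the 3SL-labelled against the Pam3CSK4-labelled libraries it turned Psmc3 (-0.0773), Psmb1 (-0.0824), Psmd12 (-0.0298), Psmd13 (-0.10), Psmd1 (-0.0574), Psma1 (-0.11), Psmf1 (-0.27) and Psme3 (-0.0473), and 11 members were called lower in place of 5. With upper-quartile factors Psmd8 turned to 0.12. Leaving out Psmc3ip, Psma8 and Psme2b was an alternative chosen after seeing the data, with fewer members counted. Then 36 members were called lower and 3 higher in the Pam3CSK4-labelled against the untreated-labelled libraries. In the 3SL-labelled against the Pam3CSK4-labelled libraries, 36 were called higher and 3 lower. The cap over core ratio moved to 0.863 (untreated-labelled), 1.02 (Pam3CSK4-labelled) and 0.9004 (3SL-labelled) without Psma6, also chosen after seeing the data, and to 0.868 (Pam3CSK4-labelled) and 0.609 (3SL-labelled) with the longest transcript as length. Between the 3SL-labelled and untreated-labelled groups 0 members were called higher with DESeq2 size factors, with the DESeq2 test or at equal depth. Psmc1 then had adjusted p-values of 0.0586, 0.0972 and 0.0542; the cause was not tested. Psmd10 and Psme2b, lower there, were lost with library size only and at equal depth. Leaving out 1 library gave 0 to 1 members higher, 3 (without B2) to 7 (without B2plus) lower, and 626 (without B2) to 1038 (without C2) genes called in all beside 1025, with 683 without A2plus. In the comparisons with the Pam3CSK4-labelled libraries, leaving out 1 library kept 37 members called lower against the untreated-labelled and 37 higher in the 3SL-labelled libraries. Library letters occur in both the untreated-labelled and the 3SL-labelled group. Deviations from the group means of libraries with the same letter correlated at 0.0275 (A), 0.12 (B) and -0.0314 (C). Those of libraries with different letters correlated at -0.189 to 0.132. With 3 libraries a group these correlations cannot decide whether the letters pair the libraries, and the main test did not pair them. With the letter as a replicate block 1 member was higher, 6 were lower and 951 genes were called, and no member's call changed. The largest changes of Psma6, Psmd10, Psme2 and Psme2b between the Pam3CSK4-labelled libraries and the others kept their direction and call under all settings run. Depth limits Psma8 and Psmc3ip, with 270 and 582 counts in all.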
